A study of Mus musculus with 17 samples.

Results

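The genes examined here help to set the chloride balance of cortical cells: the chloride cotransporters Slc12a2 and Slc12a5, the WNK kinases Wnk1, Wnk2 and Wnk3, and the kinases Stk39 and Oxsr1. They were taken by gene symbol from the table of mouse transcript levels, and all 7 were found among its 55453 distinct symbols. The samples were bulk cortex of male C57BL/6J mice from 3 lines carrying changes in Hnrnph2, an X-linked gene for an RNA-binding protein. At 8 weeks of age, hemizygous Hnrnph2 KO mice (n = 3) and hemizygous R206W knockin mice (n = 3) each had 3 wild-type littermate controls, and at 3 weeks of age hemizygous P209L knockin mice (n = 3) had 2 wild-type littermate controls. The KO line arose as an insertion or deletion that shifted the reading frame, and both knockins carry a patient substitution in the mouse gene. Line and age cannot be told apart, since every 3-week mouse came from the P209L line, and the values of different mice are the only replicates.

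Slc12a2 encodes NKCC1, which carries chloride into cells, and Slc12a5 encodes KCC2, a cotransporter of mature neurons that carries chloride out. The balance between them sets the chloride gradient, and with it whether GABA-A and glycine receptors depolarise or hyperpolarise a neuron, and the rise of KCC2 during early postnatal life is known for the switch to inhibitory GABA. WNK kinases sense low chloride and phosphorylate SPAK (Stk39) and OSR1 (Oxsr1), which in turn phosphorylate both cotransporters, activating NKCC1 and holding KCC2 back. Much of this control acts on protein phosphorylation, which was not measured here. In bulk tissue, fewer cells of a type and less RNA per cell cannot be told apart.

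Promoter windows, reaching from 250 bases before to 50 bases after an annotated RefSeq start (build GRCm38.p6), were held for 6 of the 7 genes, Slc12a2 being the exception. They are shown for Slc12a5, which has separate windows for 2 starts, and for Wnk3, the gene with the largest difference between ages. The windows lie at chr2:164960596-164960895 and chr2:164967738-164968037 on the plus strand for Slc12a5, and at chrX:151197828-151198127 on the plus strand for Wnk3. All are written 5′ to 3′, and capitals mark the E-box CACGTG, a palindrome and so the same on both strands.
Slc12a5, first start: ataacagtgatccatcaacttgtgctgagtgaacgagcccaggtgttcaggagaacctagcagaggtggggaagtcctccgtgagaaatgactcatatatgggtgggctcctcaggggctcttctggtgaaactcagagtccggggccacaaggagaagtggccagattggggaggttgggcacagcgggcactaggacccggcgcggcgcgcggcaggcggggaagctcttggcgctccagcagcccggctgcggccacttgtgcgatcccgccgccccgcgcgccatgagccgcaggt
Slc12a5, second start: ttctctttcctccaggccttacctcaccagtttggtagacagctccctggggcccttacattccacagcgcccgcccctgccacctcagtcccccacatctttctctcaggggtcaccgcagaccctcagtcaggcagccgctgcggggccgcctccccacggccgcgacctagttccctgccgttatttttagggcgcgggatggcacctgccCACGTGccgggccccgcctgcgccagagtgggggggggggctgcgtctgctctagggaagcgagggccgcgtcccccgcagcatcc
Wnk3: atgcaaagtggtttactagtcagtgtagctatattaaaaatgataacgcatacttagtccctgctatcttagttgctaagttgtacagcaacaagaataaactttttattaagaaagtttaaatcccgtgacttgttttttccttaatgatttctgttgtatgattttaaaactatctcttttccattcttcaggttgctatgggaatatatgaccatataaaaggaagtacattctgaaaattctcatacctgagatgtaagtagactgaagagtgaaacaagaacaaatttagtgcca
The second Slc12a5 window held 1 E-box, beginning 36 bases before the start, and the windows of the other members held none. Of 32817 promoter windows of the same length, 7.15% held this motif. The Egr motif GCGNGGGCG, searched on both strands, was in no member's window and in 5.56% of all windows. The windows of both Slc12a5 starts were rich in G and C (63.7% and 68.3%), whereas the Wnk3 window had 31.7%, with only 1.57% of all windows lower. The Wnk3 window held 2 CpG dinucleotides, against 21 in each Slc12a5 window and a median of 7 over all windows.

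Transcript levels were given in TPM, a share of all transcripts scaled for transcript length, so that genes can be compared within a mouse. Slc12a5 was the most abundant member, with a mean of 212 TPM over all mice, above 96.3% of the 16265 genes with a mean of at least 1 TPM. Wnk1 followed at 121 TPM, then Wnk2 at 47.8, Stk39 at 31.5, Oxsr1 at 29.0, Slc12a2 at 19.1 and Wnk3 at 14.0. Stk39 and Oxsr1 overlapped across mice (23.4 to 37.7 and 23.3 to 33.3 TPM), Stk39 being the higher in 13 of the 17, so this pair was not separated by more than its spread. The ranges of Slc12a2 and Wnk3 pooled over mice also overlapped (13.95 to 22.6 and 6.81 to 19.2 TPM), although Slc12a2 was above Wnk3 within each of the 17 mice. Of the 3 WNK transcripts, Wnk1 made up 66.5 ± 2.09% of the sum (SD, n = 17), Wnk2 26.0 ± 2.51% and Wnk3 7.54 ± 1.77%.

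The KO labels held in the data, with Hnrnph2 at 23.1 ± 1.59 TPM (SD, n = 3) in KO mice and 122 ± 35.7 TPM in their controls. The defining neuron markers were present in all mice, Rbfox3 between 84.7 and 202 TPM. Some mice stood apart. KO control 1 had 20.1% of its TPM in mitochondrial genes, against 10.7% to 15.4% in the others, and the lowest level of any 8-week mouse for Slc12a5, Slc12a2, Wnk1, Wnk2, Stk39 and Oxsr1. P209L control 2 had 6 of 6 choroid plexus markers at their highest, summed to 1780 TPM, against 4.72 to 28.4 TPM in the other 16 mice, almost all of it Ttr at 1740 TPM. Its 6 oligodendrocyte markers were also all the highest, summed to 5928 TPM against 2401 to 3964 TPM elsewhere. Choroid plexus epithelium and the oligodendrocyte lineage are known to use NKCC1. KO 3 had the highest summed endothelial markers (82.1 TPM against 21.8 to 67.4 TPM elsewhere) and microglia markers (165 TPM against 63.2 to 132.75 TPM). Its summed oligodendrocyte precursor and astrocyte markers were also the highest, at 88.5 and 679 TPM. R206W 3, the mouse with the most Slc12a5, had the lowest mitochondrial share, at 10.7%.

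**Figure D1:**
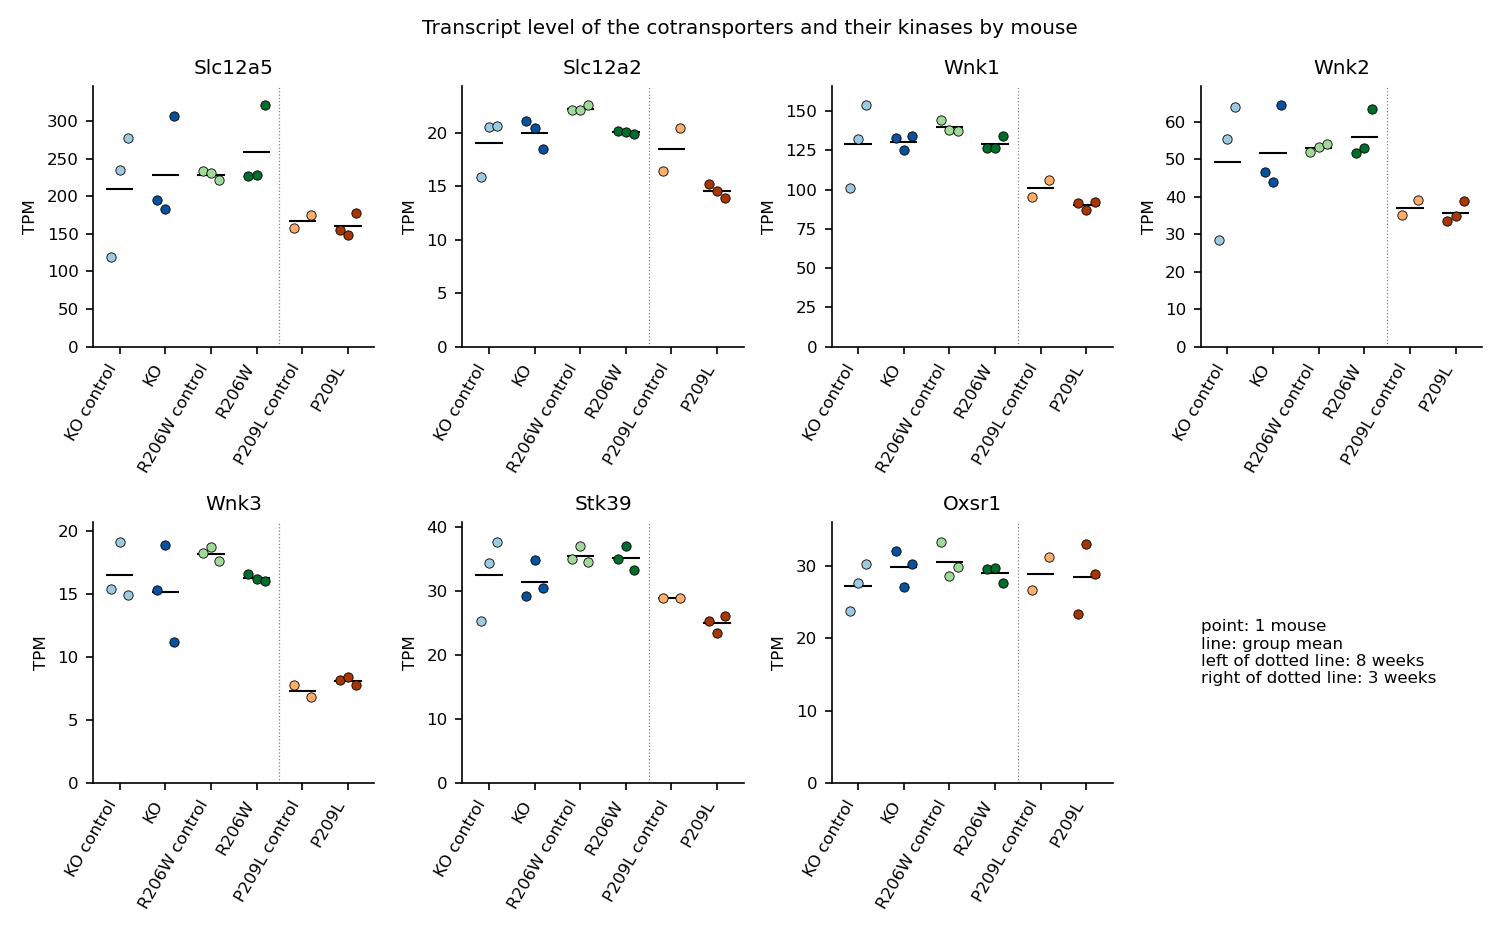
TPM of each of the 7 genes (y axis, from 0) in every mouse (points) of the 6 groups (x axis), with group means as lines; 8-week groups are left and 3-week groups right of the dotted line. Wnk3 lies between 11.2 and 19.2 TPM in the 8-week mice and between 6.81 and 8.41 TPM in the 3-week mice, while Oxsr1 spans the same range at both ages.

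At 8 weeks, loss of Hnrnph2 left no detectable difference in any of the 7 transcripts. The chloride exporter Slc12a5 was at 119, 235 and 277 TPM in the KO controls and at 196, 183 and 307 TPM in KO mice. The importer Slc12a2 was at 15.8, 20.6 and 20.7 TPM in the controls and at 21.1, 20.5 and 18.5 TPM in KO mice. For both cotransporters the lowest value was a control, and the groups overlapped. KO minus control differences on the log2(TPM + 1) scale were 0.17 (SE 0.253, 95% confidence interval -0.370 to 0.707) for Slc12a5 and 0.08 (SE 0.112, interval -0.159 to 0.316) for Slc12a2. With limma, 0 of 7 members passed an adjusted p of 0.05 and 0 had an unadjusted p under 0.05, against 0.00615% of all genes called, which was Hnrnph2 itself. The groups overlapped for all 7 members, where 6.25% of all genes did not overlap.

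The kinases gave the same picture in the KO line. Wnk3, the least abundant WNK, was at 15.4, 19.2 and 14.9 TPM in controls and at 15.4, 18.9 and 11.2 TPM in KO mice. Wnk1, the most abundant WNK, averaged 129 ± 26.5 TPM in controls and 131 ± 4.55 TPM in KO mice (SD, n = 3 each). Stk39 averaged 32.4 ± 6.37 and 31.4 ± 2.95 TPM, and Oxsr1 27.2 ± 3.32 and 29.8 ± 2.47 TPM. Without KO control 1, Slc12a5 was lower rather than higher in KO mice, by -0.20 on the log2 scale, and Wnk2 by -0.22. Without KO 3 they were also lower, by -0.06 and -0.04, and none passed the test in any case.

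In the R206W line the transcripts of Slc12a2, Wnk1 and Wnk3 were a little lower in the mutants, in mice that differed little from each other, yet none passed the test. That test pooled the spread of each gene over the mice of all groups, so Slc12a2 had an SE of 0.112 here and in the KO line. Its SD was 0.261 TPM in R206W controls and 0.168 TPM in R206W mice, against 2.75 TPM in KO controls. With only the R206W line's groups in the fit, 0 of 7 members were called in limma, against 0.0615% of all genes. In that fit 2 of 7 had an unadjusted p under 0.05. The share of all genes at that unadjusted p was not taken for this fit, so the 2 cannot be read against it. Slc12a2 was at 22.1, 22.2 and 22.6 TPM in controls and at 20.2, 20.1 and 19.9 TPM in R206W mice. Every mutant was below every control, at 89.99% of the control mean, with a log2 difference of -0.15 (SE 0.112, 95% interval -0.383 to 0.0922). Wnk3 was at 18.3, 18.8 and 17.6 TPM in controls and at 16.6, 16.2 and 16.1 TPM in mutants, 89.4% of the control mean. Wnk1 was at 145, 138 and 137 TPM in controls and at 126, 127 and 134 TPM in mutants, 92.3% of the control mean. These 3 were the members whose groups did not overlap, where 16.2% of all genes did not overlap either.

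Slc12a5 was at 234, 230.5 and 222 TPM in R206W controls and at 227, 229 and 321 TPM in R206W mice. The mutant R206W 3 was far above the rest, and the others lay inside the control range. The log2 difference was 0.16 (SE 0.253, interval -0.379 to 0.698), and it was -0.01 without that mouse. Wnk2, Stk39 and Oxsr1 also overlapped between groups, at 105%, 98.9% and 94.8% of the control means. With all mice in the fit, limma called 0 of 7 members, with 0 at an unadjusted p under 0.05 and adjusted p-values near 1, against 0.0369% of all genes called.

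At 3 weeks, Slc12a2 was the member that differed most between P209L mice and their controls with all mice in the fit. It was at 16.4 and 20.5 TPM in the controls and at 15.3, 14.6 and 13.95 TPM in P209L mice, so every mutant was below both controls. The mutant mean was 79.1% of the control mean, a log2 difference of -0.31 (SE 0.125, 95% interval -0.577 to -0.0464) with a p of 0.0242 in limma and an adjusted p of 0.565. The higher control was P209L control 2, the mouse with 1780 TPM of choroid plexus markers and the most oligodendrocyte markers. Without it the Slc12a2 difference was -0.16 and that of Stk39, then the largest, was -0.20 (adjusted p = 1 for each in limma), and all 3 mutants were still below the remaining control. Summed oligodendrocyte markers were 3964 TPM in that remaining control and 2905, 3460 and 2401 TPM in the mutants. The part of these cell types in the Slc12a2 difference was not tested beyond leaving that mouse out.

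**Figure D2:**
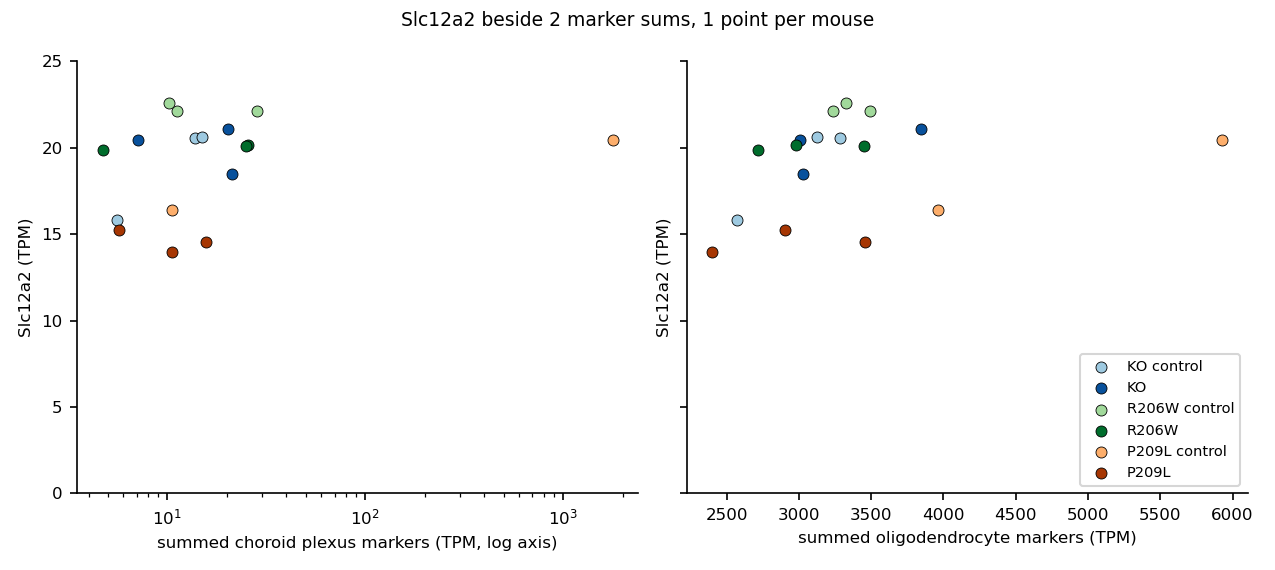
Slc12a2 (y axis, TPM) against the summed TPM of 6 choroid plexus markers (left, log axis) and of 6 oligodendrocyte markers (right) in each of 17 mice, coloured by group. P209L control 2 lies alone at 1780 TPM of choroid plexus markers and 5928 TPM of oligodendrocyte markers, with Slc12a2 at 20.5 TPM against 16.4 TPM in the other P209L control.

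Slc12a5 was at 158 and 176 TPM in P209L controls and at 156, 149 and 178 TPM in P209L mice, a log2 difference of -0.06 (SE 0.283, interval -0.658 to 0.547). Among the kinases, Stk39 was at 28.8 and 28.9 TPM in controls and at 25.3, 23.4 and 26.1 TPM in mutants. Wnk1 was at 95.2 and 106 TPM in controls and at 91.3, 87.2 and 92.4 TPM in mutants. Wnk3 went the other way, at 7.80 and 6.81 TPM in controls and 8.17, 8.41 and 7.82 TPM in mutants. These genes and Slc12a2 were the 4 of 7 members without overlap, 3 of them lower in the mutants, where 24.9% of all genes did not overlap between groups of this size. Wnk2 and Oxsr1 overlapped. Without P209L control 2 the differences were -0.08 for Wnk1, 0.05 for Wnk3, 0.02 for Slc12a5 and Wnk2 and 0.07 for Oxsr1. Limma called 0 of 7 members, 1 (Slc12a2) having an unadjusted p under 0.05, against 0.0984% of all genes called and 7.46% of all genes at that unadjusted p.

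Differences between the lines in the mutant effect were tested in the same limma fit. For KO minus R206W, 0 of 7 members were called and 0 had an unadjusted p under 0.05 (0.0307% of all genes called). For KO minus P209L, 0 of 7 were called (0.0492% of all genes). Slc12a2 alone had an unadjusted p under 0.05, as 7.98% of all genes did, its effect being 0.39 higher in the KO line (SE 0.168, adjusted p = 0.593 in limma). That difference was 0.12 with KO control 1 and P209L control 2 left out. For R206W minus P209L, 0 of 7 members were called, with 0 at an unadjusted p under 0.05, and 0% of all genes were called. The wild-type littermates of the 2 lines at 8 weeks differed in 0 of 7 members (0% of all genes called, and 0 members at an unadjusted p under 0.05). All 7 were higher in R206W controls than in KO controls, by a median of 0.17, close to the median of 0.13 over all genes. Without KO control 1 the member median was -0.02, and it was 0.02 with median-of-ratios scaling. Slc12a2 was the 1 member without overlap there, against 9.07% of all genes.

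**Figure D3:**
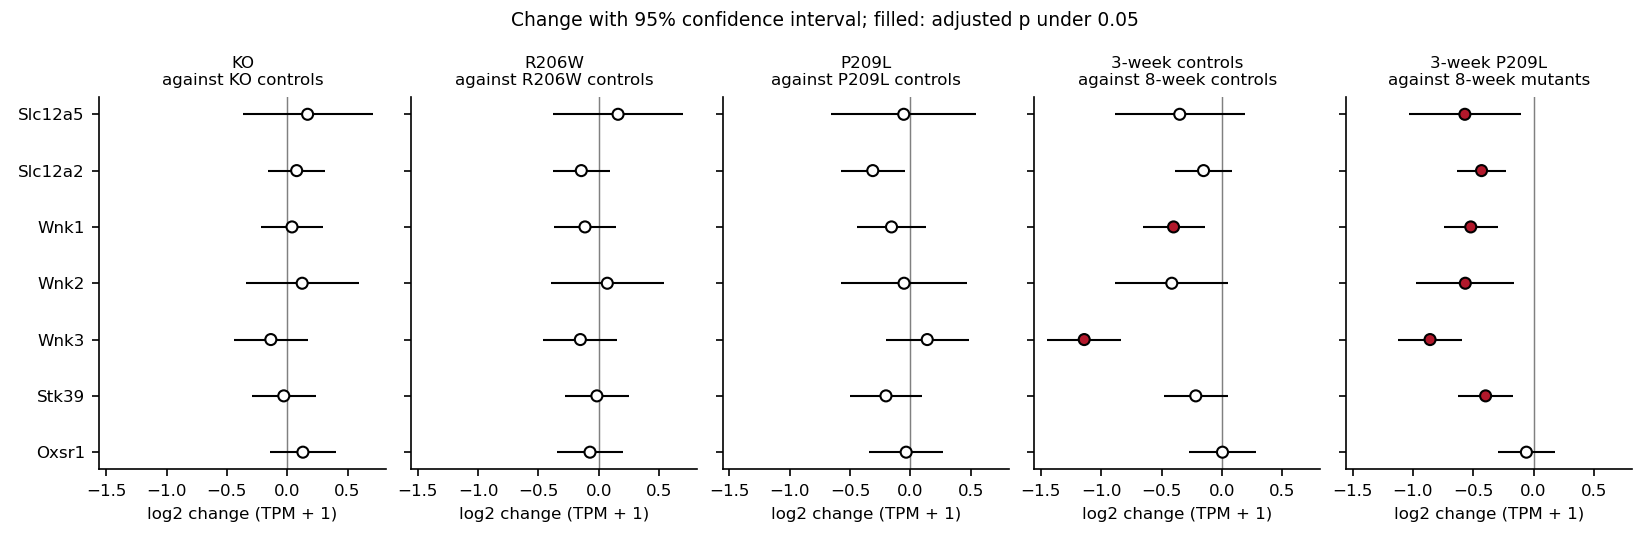
Log2 change of each gene in TPM + 1 (x axis) with its 95% confidence interval (line) in 5 comparisons, filled where the adjusted p in limma was under 0.05. No interval is filled in the 3 comparisons of mutants with littermates, 2 are filled between control groups of different age, and 6 between mutants of different age.

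Between ages, Wnk3 stood out. It was at 7.80 and 6.81 TPM in the 3-week controls and at 14.9 to 19.2 TPM (median 17.96) in the 6 controls of 8 weeks, with no overlap. The 3-week mean was 42.1% of the 8-week mean (7.31 ± 0.700 against 17.4 ± 1.79 TPM, SD), a log2 difference of -1.14 (SE 0.145, adjusted p = 7.27e-05 in limma). Wnk3 was lower at 3 weeks under each alternative of processing and each mouse left out, with differences from -1.23 to -0.98. Wnk1 was the only other member called, at 95.2 and 106 TPM at 3 weeks against 101 to 154 TPM (median 138) at 8 weeks. Its 3-week mean was 75.0% of the 8-week mean, a log2 difference of -0.40 (SE 0.121, adjusted p = 0.0177), although KO control 1 at 101 TPM lay between the 3-week mice. Without P209L control 2 the Wnk1 difference was -0.48 with an adjusted p of 0.0570, and without P209L control 1 it was -0.32 with an adjusted p of 0.181.

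These 2 calls out of 7 were set against 36.1% of all genes called between these control groups, with 24.8% of all genes called lower at 3 weeks. The median of all genes was itself -0.12 lower at 3 weeks in TPM, and that of the 7 members was -0.35. Wnk3 was the 1 member without overlap, against 38.2% of all genes. Summed neuron markers were lower in every 3-week mouse (2357 to 2769 TPM) than in any 8-week mouse (2902 to 5081 TPM), though of the 5 markers Map2, Snap25 and Syt1 were called lower between the controls in limma while Rbfox3 (-0.30) and Tubb3 (-0.06) were not. Summed microglia markers were also lower in every 3-week mouse (63.2 to 88.1 TPM) than in any 8-week mouse (106 to 165 TPM), with 3 of 3 called lower between the controls. Between the controls all 5 astrocyte markers were also lower at 3 weeks, with 2 called. All 6 oligodendrocyte markers went the other way, with a median of 0.67 and 4 called higher. That median was 0.29 with KO control 1 and P209L control 2 left out. The part of any of these cell types in the age differences was not tested.

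Slc12a5, whose product rises early in postnatal life, was at 158 and 176 TPM in 3-week controls and at 119 to 277 TPM (median 232) in 8-week controls. The 3-week mean was 76.0% of the 8-week mean, a log2 difference of -0.35 (SE 0.253, 95% interval -0.889 to 0.188, adjusted p = 0.294 in limma). KO control 1 alone, at 119 TPM, was below the 3-week mice. Without it the difference was -0.53 with an adjusted p of 0.0226, Wnk2 reached -0.59 (adjusted p = 0.00202) and Stk39 -0.30 (adjusted p = 0.00825), so that 5 of 7 members were called lower at 3 weeks, with 50.3% of all genes then called in either direction. Without P209L control 2 instead, Slc12a5 was at -0.43, Wnk2 at -0.49, Stk39 at -0.22 and Wnk3 at -1.06. That fit left P209L control 1 alone at 3 weeks, so these differences rest on that mouse.

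Slc12a2 was at 16.4 and 20.5 TPM in 3-week controls and at 15.8 to 22.6 TPM (median 21.4) in 8-week controls, a log2 difference of -0.15 (SE 0.112, interval -0.390 to 0.0845, adjusted p = 0.299 in limma). Without P209L control 2 it was -0.30 (adjusted p = 0.151). With both KO control 1 and P209L control 2 left out, a comparison added after the data were seen, it was -0.36 with an adjusted p of 0.0108, and 4 of 7 members were called lower, where 27.8% of all genes were called lower. Stk39 was at 28.8 and 28.9 TPM against a median of 34.7 TPM, and Wnk2 at 35.2 and 39.1 TPM against a median of 53.7 TPM, neither called with all mice. Oxsr1 averaged 28.9 ± 3.17 TPM (n = 2) at 3 weeks and 28.9 ± 3.19 TPM (n = 6) at 8 weeks, with a 95% interval of the log2 difference from -0.271 to 0.279.

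The mutants of both ages gave a second comparison with no mouse in common with the controls, though the genotypes differ along with the age. Of the 7 members, 6 were called lower in 3-week P209L mice than in the KO and R206W mice of 8 weeks, and Oxsr1 was not called (adjusted p = 0.684 in limma). Wnk3 again differed most, at 7.82 to 8.41 TPM against 11.2 to 18.95 TPM, a log2 difference of -0.86 (SE 0.125, adjusted p = 0.000108). Slc12a2 differed by -0.43 (SE 0.0968, adjusted p = 0.00229), at 13.95 to 15.3 TPM against 18.5 to 21.1 TPM. Slc12a5 differed by -0.57 (SE 0.220, adjusted p = 0.0446), at 149 to 178 TPM against 183 to 321 TPM.

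Wnk1, Stk39 and Wnk2 differed by -0.52, -0.40 and -0.57 in the same comparison (adjusted p = 0.00109, 0.00742 and 0.0242 in limma). In all, 6 of 7 members were called, each lower, with 45.9% of all genes called and 32.1% called lower, and 6 did not overlap, against 40.2% of all genes. The median of all genes was -0.16 here and that of the members -0.52. The Slc12a5 call was lost, with adjusted p-values of 0.0923 and 0.0953, on leaving out KO 3 or R206W 3, its 2 highest mice, and with them the Wnk2 call, at 0.0515 and 0.0518. It was also lost without P209L 1, P209L 2 or P209L 3 (0.116, 0.139 and 0.0590), as the Wnk2 call was without P209L 1 or P209L 2 (0.0853 and 0.0754).

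The ratio of Slc12a5 to Slc12a2 puts the exporter and the importer of 1 mouse side by side and does not depend on how that mouse's TPM were scaled. In bulk cortex the 2 transcripts need not come from the same cells, so it is not a ratio within neurons. The ratio was 9.61 and 8.58 in the 3-week controls and 10.2, 10.2 and 12.7 in the P209L mice. At 8 weeks it was 7.49, 11.4 and 13.4 in KO controls, 9.27, 8.93 and 16.6 in KO mice, 10.6, 10.4 and 9.82 in R206W controls, and 11.2, 11.4 and 16.2 in R206W mice. The exporter transcript was therefore at least 7.49 times the importer transcript in each of the 17 mice. The 5 mice of 3 weeks averaged 10.3 ± 1.53 and the 12 mice of 8 weeks 11.4 ± 2.77 (SD), and every 3-week value lay inside the 8-week range.

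**Figure D4:**
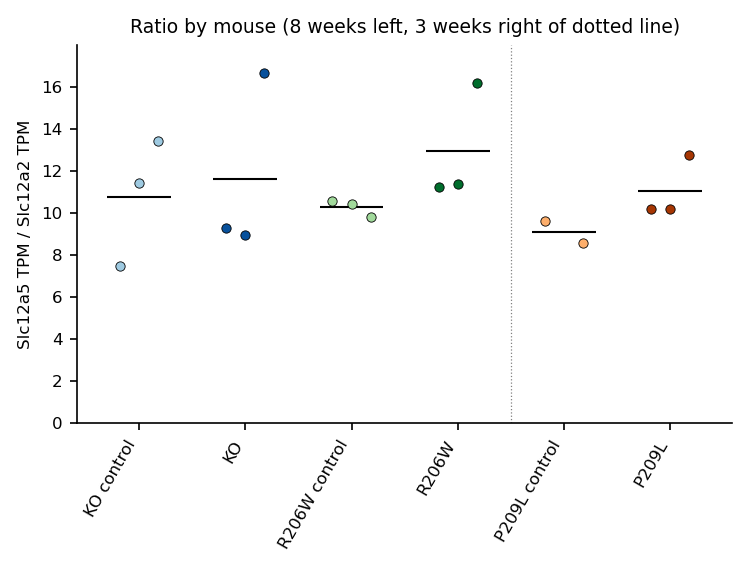
Ratio of Slc12a5 TPM to Slc12a2 TPM (y axis, from 0) in every mouse (points) of the 6 groups, with group means as lines and 3-week groups right of the dotted line. The 3-week mice lie between 8.58 and 12.7, within the 7.49 to 16.6 of the 8-week mice.

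In all, 7 comparisons of the log2 ratio were made with two-sided exact permutation tests, and none passed after adjustment over the 7. All 3-week against all 8-week mice differed by -0.13 (exact permutation p = 0.464, adjusted p = 0.812). The 3-week controls differed from the 8-week controls by -0.19 (exact permutation p = 0.429, the smallest this design allows being 0.0714) and P209L mice from the 8-week mutants by -0.12 (p = 0.690). Without P209L control 2 these 3 differences were -0.06, -0.11 and, for the mutants, which it does not enter, again -0.12. With KO control 1 left out as well, the difference between controls was -0.20. No difference between ages beyond the spread between mice was detected, which does not show that the ratio was equal.

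The ratio was higher in each R206W mouse than in any R206W control, by 0.31 on the log2 scale, and higher in each P209L mouse than in either P209L control, by 0.27. The exact permutation p was 0.1 in the R206W line and 0.2 in the P209L line, in both the smallest that the number of mice allows (adjusted p = 0.7 in each). KO mice overlapped their controls, with a difference of 0.09 (exact permutation p = 0.9). Without R206W 3 the R206W difference was 0.14, and with 1 mouse of the P209L line left out that difference ranged from 0.17 (without P209L 3) to 0.36 (without P209L control 1), with 0.19 without P209L control 2. The 2 groups of 8-week controls differed by -0.03 (exact permutation p = 1). The 6 oligodendrocyte markers were all lower in R206W mice (median -0.13, Mag by only -0.000165) and in P209L mice (median -0.84) than in their controls. In KO mice all 6 were higher (median 0.16), and none was called in limma. KO control 1 had the lowest sum of these markers among the KO controls, at 2570 TPM. The P209L median was -0.61 with KO control 1 and P209L control 2 left out. These directions were not particular to oligodendrocytes. Markers of oligodendrocyte precursors, endothelial cells, microglia and leptomeningeal fibroblasts were also all lower in P209L and all higher in KO mice. Neuron and astrocyte markers went both ways in each line. The part of any of these cell types in the ratio was not tested.

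The sum of the WNK transcripts was 139 ± 8.49 TPM in the 5 mice of 3 weeks and 201 ± 21.4 TPM in the 12 mice of 8 weeks (SD). Wnk3 was 4.47% to 6.45% of that sum at 3 weeks and 5.33% to 10.6% at 8 weeks, with KO 3 at 5.33% and KO control 3 at 6.40% the 8-week mice inside the 3-week range. The share of Wnk1 also overlapped between ages, at 66.4% to 69.9% and 62.9% to 69.7%. Wnk2 held 26.2 ± 1.15% at 3 weeks and 25.9 ± 2.94% at 8 weeks. Between the kinases that WNKs activate, the ratio of Stk39 to Oxsr1 averaged 0.941 ± 0.154 at 3 weeks and 1.16 ± 0.122 at 8 weeks, with overlap. These shares were compared as a description, with no test.

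Among the members, Slc12a5 and Wnk2 had the most similar profiles over the 17 mice, with a root mean square difference of 0.0787 in centred log2(TPM + 1), against 0.372 for Slc12a5 around its own mean. Over 9817 genes with a mean of at least 10 TPM, the closest to Slc12a5 were Dctn1 (0.0726), Klc2 (0.0740) and Sec31a (0.0749). For Slc12a2, whose own spread was 0.206, they were Mdn1 (0.0893), March8 (0.0918) and Dock10 (0.0941). The mice differ in age, line and mitochondrial share, which many genes may follow together, so likeness here is a description only.

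Of the rest of the chloride pathway, no gene of 6 lists was called between any mutant and its littermates. The list counts between 3-week and 8-week controls are to be read against 36.1% of all genes called and 24.8% called lower, and nothing particular to a list was tested. Of 8 WNK-SPAK partners tested, 6 were called lower and none was called higher, with a median of -0.56. They included Klhl2 and Cul3, parts of the ubiquitin ligase that removes WNKs, at 45.8 ± 2.79 against 75.1 ± 9.59 TPM and 70.2 ± 9.15 against 105 ± 13.4 TPM. Sgk1, a kinase of sodium transport, differed by -1.03 (adjusted p = 0.00165 in limma) and Nedd4l, a ubiquitin ligase, by -0.80 (adjusted p = 0.00481).

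Of 10 partners and regulators of KCC2, 5 were called lower at 3 weeks, with a median of -0.71. Neto2, which binds KCC2, was at 21.96 ± 3.56 TPM (n = 2) against 37.9 ± 3.31 TPM (n = 6), and Epb41l1, a membrane skeleton protein, at 124 ± 8.66 against 215 ± 23.7 TPM. Bdnf and its receptor Ntrk2, known to regulate KCC2, differed by -1.08 and -0.80 (adjusted p = 0.00364 and 0.00300 in limma). Of 7 other cation-chloride cotransporters 4 were tested and 0 called in limma, with 0 at an unadjusted p under 0.05, although 1 was called higher with median-of-ratios or quantile scaling.

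Of 14 further chloride channels and exchangers, 7 were called lower at 3 weeks, led by the volume-regulated channel subunits Lrrc8b (-0.72) and Lrrc8c (-0.87) and the endosomal exchangers Clcn3 (-0.51) and Clcn6 (-0.63). The 1 called higher was Clcn2 (0.49, adjusted p = 0.0458 in limma), a channel named after its value was seen. Under the 3 other scalings 2 or 3 were called higher. Of 15 GABA-A and glycine receptor subunits, which pass the chloride current itself, 9 were called lower. Gabrb2 was at 26.9 ± 4.77 TPM at 3 weeks and 101 ± 15.5 TPM at 8 weeks, and Gabrb1 and Glrb differed by -0.84 and -0.79. Of 6 sodium-potassium ATPase subunits, whose pump drives the cotransporters, 3 were called lower, among them Atp1b2 (-1.0003). Leaving out KO control 1 and P209L control 2 left P209L control 1 alone at 3 weeks. List medians were then -0.67 for WNK-SPAK partners, -0.72 for KCC2 partners, -0.45 for channels and -0.35 for receptor subunits. They were -0.85 for ATPase subunits and -0.22 for cotransporters, and the median of all genes was -0.19.

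**Figure D5:**
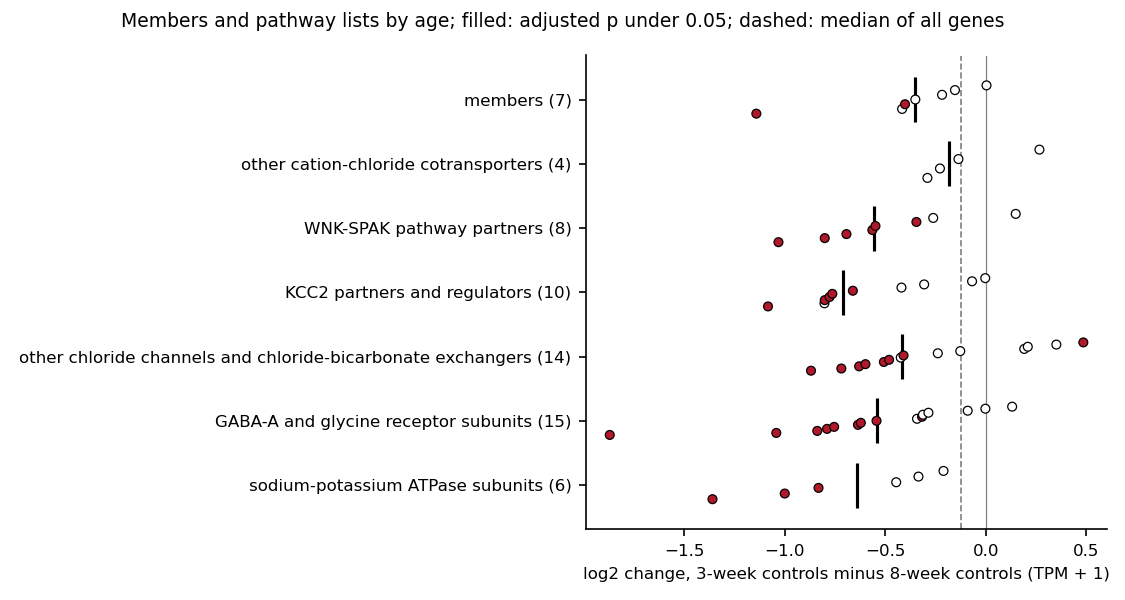
Log2 difference in TPM + 1 between 3-week and 8-week controls (x axis) for the 7 members and for each gene tested in 6 pathway lists (points, filled where the adjusted p was under 0.05), with list medians as bars and the median of all genes, -0.12, as a dashed line. Wnk3 is the member farthest to the left at -1.14 and Gabrb2 the list gene farthest to the left at -1.87.

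In the mutants of both ages, where 32.1% of all genes were called lower, the counts called lower in 3-week P209L mice were 5 of 8 WNK-SPAK partners, 7 of 10 KCC2 partners, 8 of 14 channels and exchangers, 6 of 15 receptor subunits and 5 of 6 ATPase subunits. Slc12a4 (KCC1) was the 1 cation-chloride cotransporter of 4 that was called, at -0.51 (adjusted p = 0.0121 in limma). Called higher in P209L mice were 1 channel and 2 receptor subunits. Gabrb2 differed by -1.41 and Glrb by -0.74.

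The members lie on 6 chromosomes and are protein coding in GENCODE M21 (build GRCm38). Slc12a5 spans positions 164960802 to 164999731 and Stk39 68210445 to 68472268 of chromosome 2, on opposite strands. Wnk1 spans 119923969 to 120038672 of chromosome 6, Wnk2 49036303 to 49148014 of chromosome 13, and Oxsr1 119238432 to 119322427 of chromosome 9. Slc12a2 spans 57878678 to 57946821 of chromosome 18. Wnk3 spans 151198078 to 151320152 of chromosome X, which also holds Hnrnph2. Each TPM value sums over a gene's transcripts, of which the annotation lists 26 for Wnk1 and 10 for Slc12a5, so a change of isoform could not be seen.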

How the data were processed

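Cortex was dissected and frozen, total RNA was extracted, and stranded libraries were made with an Illumina total RNA kit, per the labels. The authors deposited 1 table of TPM per gene. The submitters' processing notes name Trim Galore, STAR 2.7.1a, GATK 4.0.4.0, RSEM and mm10, with no roles given, and depth is unknown from TPM. Symbols repeated in the table (120 rows) were summed. Values were analysed as log2(TPM + 1) for the 16265 genes with a mean of at least 1 TPM, with limma 3.58.1 in R 4.3.3: 1 mean per group over all 17 mice, a trended moderated test and Benjamini-Hochberg adjustment over all genes. A fold on this scale understates the change of low genes. The Slc12a5/Slc12a2 ratio was tested by exact permutation in scipy 1.17.1. The fit was tested on simulated data. Nothing says how mice shared litters, so it is unknown whether they are independent, as the tests assume. The limma p-values set each difference against the spread between mice within groups, pooled over all groups.

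Members, gene lists and marker lists were chosen with earlier results of these data known. From each list, counts are given with up to 4 genes of smallest p among those called, and for Slc12a5 and Slc12a2 the 3 most similar genes. Some genes that this rule names are not reported here. The design text states 3 mice per group, and 2 controls of the P209L line were analysed here. Alternatives covered pseudocount, filter, scaling, weights, block and mice left out. Sequences came from RefSeq (GRCm38.p6) and positions from GENCODE M21, which held 98.3% of the symbols.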

Additional observations from a re-analysis of the deposited data

Results flagged for a closer look

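Of 24 combinations of a member or the cotransporter ratio with a pooled group of 5 or 6 mice, 4 had a mouse whose gap to its nearest neighbour was too large a part of the group's range by Dixon's criterion. Chance gives about 1 in 20 for a single combination. The combinations share mice and are not independent, so the 4 are not separate events to set against that rate. All 4 concerned 1 mouse, KO control 1, among the 6 controls of 8 weeks: Slc12a5 at 118.7 TPM, Slc12a2 at 15.84 TPM, Wnk2 at 28.48 TPM and Stk39 at 25.33 TPM, each the lowest. This mouse also had the highest mitochondrial share, at 20.1%, and the lowest summed neuron markers of any 8-week mouse, at 2902 TPM against 4148 to 5081 TPM in the others, and the part of either in its low values was not tested.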

How the results depend on the processing

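Settings that reversed a sign did so for members that were not called. In the KO line, Wnk1 was -0.042 with median-of-ratios scaling, -0.026 with quantile normalization, -0.021 with mitochondrial genes removed and -0.040 with sample weights, which put Slc12a5 at -0.27 and Wnk2 at -0.25. With KO control 1 and P209L control 2 left out (added after seeing the data), KO values were -0.042 for Slc12a2, -0.20 for Slc12a5, -0.12 for Wnk1 and -0.22 for Wnk2, and P209L values 0.021 for Slc12a5, 0.021 for Wnk2 and 0.073 for Oxsr1. Oxsr1 in P209L was 0.061 with sample weights. By age in controls, Slc12a2 was 0.028 with quantile normalization, and Oxsr1 was -0.0042 with sample weights and -0.15 without those mice. In mutants by age, Oxsr1 was 0.098, 0.12, 0.016 and 0.0030 with the 3 scalings and sample weights. The KO ratio was -0.30 by medians and -0.15 without those mice.

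Leaving out 1 mouse gave, in the KO line, -0.042 to 0.14 for Slc12a2, -0.20 to 0.41 for Slc12a5, -0.12 to 0.18 for Wnk1, -0.22 to 0.35 for Wnk2, -0.30 to 0.054 for Wnk3, -0.19 to 0.086 for Stk39 and -0.20 to 0.27 for the ratio. In the R206W line it gave -0.0054 to 0.25 for Slc12a5, -0.020 to 0.12 for Wnk2 and -0.055 to 0.020 for Stk39. In the P209L line it gave -0.13 to 0.021 for Slc12a5, -0.13 to 0.021 for Wnk2 and -0.15 to 0.094 for Oxsr1. By age, Oxsr1 ranged from -0.10 to 0.11 in controls and from -0.17 to 0.070 in mutants, and the ratio between 8-week control groups from -0.27 to 0.15.

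Members called between control ages were 2, with 36.1% of all genes called. They were 6 with sample weights (58.2% of all genes) and 1 when only the compared groups entered the fit (26.6%). With 1 of the 8-week controls left out they were 2 to 5 (30.9% to 50.3%). Fits that left only 1 control at 3 weeks are not in these counts. The KO, R206W and P209L comparisons had 0 members called under every setting run. With sample weights, however, 4, 2 and 2 of the 7 members had an unadjusted p under 0.05 in limma. Of all genes, 13.1%, 0.916% and 0.443% were then called. When only the compared groups entered the fit, 0, 2 and 0 members had an unadjusted p under 0.05 in limma. The share of all genes at an unadjusted p under 0.05 was not taken under either setting, so these unadjusted counts cannot be read against it. KO control 1 had a weight of 0.0819, the lowest of all mice. Among mutants by age, the Slc12a5 call was lost with no filter (adjusted p = 0.105 in limma) and median-of-ratios scaling (0.0586), and the Wnk2 call with no filter (0.0601). Genes called over the whole table ranged from 0 to 2138 in the KO line (1 as reported), 5 to 149 in R206W (6), 6 to 72 in P209L (16), 2719 to 9470 between control ages (5876) and 5559 to 9035 between mutant ages (7470), the highest with sample weights. Between 8-week control groups they ranged from 0 to 26 (0), and for KO minus R206W, KO minus P209L and R206W minus P209L from 3 to 319 (5), 4 to 344 (8) and 0 to 7 (0). Under the 3 other scalings, genes called lower at 3 weeks in controls were 5 or 6 of 8 WNK-SPAK partners, 5 or 6 of 10 KCC2 partners, 6 to 8 of 14 channels, 6 to 9 of 15 receptor subunits and 3 or 4 of 6 ATPase subunits. Of all genes, 43.2% to 44.5% were then called in either direction. In mutants the counts called lower were 3 to 6, 5 or 6, 6 to 8, 3 to 5 and 3 to 6 of the same lists, with 51% to 51.1% of all genes called in either direction. Same-numbered mice correlated from -0.113 to 0.331 and often not best with their own number. Values were centred within groups of 2 or 3 mice, which constrains these correlations, so they cannot settle whether numbers mark pairs. The numbers were not taken as pairs. A replicate block changed no call of a member: 0, 0, 0, 2 and 6 were called in the 5 comparisons, and the P209L ratio difference was 0.17. TPM without counts leaves depth unknown, and 2 controls at 3 weeks limit every comparison they enter.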
